A study of Homo sapiens with 12 samples.

Results

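The genes examined here encode the proteins of the mitochondrial ribosome. They are the 78 protein-coding genes of the deposited gene table whose symbols start with MRPL or MRPS and a number, out of 58302 genes listed, of which 19817 are protein-coding. By name, 49 belong to the large subunit (MRPL) and 29 to the small subunit (MRPS). Their loci lie on 21 chromosomes.

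The study measured polyA RNA in U251 and U87, established human cell lines derived from glioma. Separate libraries were made with and without exposure to artesunate, an antimalarial drug derived from artemisinin. The treatment labels name artesunate, whereas the extraction protocol names artemisinin. Each line gave 3 libraries of cells kept in medium labelled 10%DMEM, called untreated here, and 3 libraries of cells given artesunate for 24 hours. U251 received 180 µM and U87 a far lower 24.08 µM. Dose and cell line therefore cannot be separated. All 12 libraries are labelled day 9, no solvent control is described, and the labels do not say whether replicates were separate cultures. The p-values below therefore measure the spread between these libraries, which may be technical.

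The mitochondrial ribosome sits on the matrix side of the inner membrane and makes the few proteins that mitochondrial DNA encodes, all of them parts of the respiratory chain and ATP synthase. Its RNAs come from the mitochondrial genome, whereas all of its proteins are encoded in the nucleus and imported. Some of these proteins descend from bacterial ribosomal proteins, and others were added in mitochondria. The numbering of the symbols is not a reliable guide to location, since MRPS30 and MRPS18A lie in the large subunit, and MRPS36 is a component of the 2-oxoglutarate dehydrogenase complex rather than a ribosomal protein. By place in the structure, the members divide into 51 large-subunit proteins, 26 small-subunit proteins and MRPS36.

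The libraries held between 13631985 and 17314284 counts assigned to genes. All 78 members passed the filter on low counts, among 17150 genes tested. Log2 counts correlated within groups at r = 0.985 to 0.987, except in artesunate-treated U87, where r was 0.972 to 0.981 and replicate 2 differed from the other two libraries for several members. Among 12 glioma and astrocyte markers, VIM and CD44 were abundant in every library, and AQP4 had no count in any. SOX2 was at 224 to 262 CPM (counts per 1000000 of the scaled library size) in U251 and had no count in U87. GFAP was at 46.1 to 94.7 CPM in U251 and at 0.621 to 1.9 CPM in U87. Summed, the list was at 5373 to 7296 CPM over all libraries. A list of 8 microglial and leukocyte markers summed to 1.06 to 6.66 CPM in U251, to 89.9 to 135 CPM in untreated U87 and to 38.3 to 64.8 CPM in treated U87, mostly CD68, CSF1R and TMEM119. AIF1 had no count, and PTPRC, the common leukocyte marker, was at most at 0.256 CPM. A list of 7 neuronal markers summed to 2829 to 3074 CPM in untreated U251, mostly NEFL, and to 80.2 to 101 CPM in untreated U87. In the same groups 6 endothelial markers summed to 94.5 to 100 and 40.7 to 46.3 CPM, and 5 epithelial markers to 23 to 37.2 and 6 to 7.06 CPM. A list of 5 oligodendrocyte markers summed to at most 0.932 CPM in any library. The part of these genes in the results was not tested.

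Promoters are shown first for 4 members, chosen on the fit without the offsets for transcript GC content and length described below. They are those whose transcripts fell most in U87, MRPS34 and MRPL24, and the ribosomal members that rose most there, MRPL42 and MRPS22. Each line holds the RefSeq sequence (GRCh38.p14) from 250 bases before to 50 bases after the RefSeq start, read 5′ to 3′ on the strand of the gene. Capitals mark exact matches, on either strand, to CCGGAAG, a core recognised by ETS factors such as GABPA, or to AAGATGGC, a core recognised by YY1. These factors are known for regulating nuclear genes of mitochondrial function. The windows lie at chr16:1773085-1773384 (minus strand) for MRPS34, chr1:156741039-156741338 (minus strand) for MRPL24, chr12:93467264-93467563 (plus strand) for MRPL42 and chr3:139343744-139344043 (plus strand) for MRPS22.
MRPS34: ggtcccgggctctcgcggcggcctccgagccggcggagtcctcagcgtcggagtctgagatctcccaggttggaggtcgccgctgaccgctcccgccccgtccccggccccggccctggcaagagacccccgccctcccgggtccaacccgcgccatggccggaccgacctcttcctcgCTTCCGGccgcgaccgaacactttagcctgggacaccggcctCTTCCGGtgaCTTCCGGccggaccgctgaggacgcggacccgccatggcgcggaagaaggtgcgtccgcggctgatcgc
MRPL24: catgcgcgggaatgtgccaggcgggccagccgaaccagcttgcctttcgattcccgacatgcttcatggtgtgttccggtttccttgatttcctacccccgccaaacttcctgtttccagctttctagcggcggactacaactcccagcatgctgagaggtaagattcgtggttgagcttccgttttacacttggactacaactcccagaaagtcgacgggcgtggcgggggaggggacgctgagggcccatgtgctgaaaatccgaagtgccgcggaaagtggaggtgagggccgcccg
MRPL42: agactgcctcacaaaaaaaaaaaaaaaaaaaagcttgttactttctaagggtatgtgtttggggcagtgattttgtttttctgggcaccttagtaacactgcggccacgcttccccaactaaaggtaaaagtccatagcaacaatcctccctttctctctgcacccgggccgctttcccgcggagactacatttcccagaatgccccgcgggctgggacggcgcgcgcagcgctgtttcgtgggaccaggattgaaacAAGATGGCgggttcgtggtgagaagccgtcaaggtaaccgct
MRPS22: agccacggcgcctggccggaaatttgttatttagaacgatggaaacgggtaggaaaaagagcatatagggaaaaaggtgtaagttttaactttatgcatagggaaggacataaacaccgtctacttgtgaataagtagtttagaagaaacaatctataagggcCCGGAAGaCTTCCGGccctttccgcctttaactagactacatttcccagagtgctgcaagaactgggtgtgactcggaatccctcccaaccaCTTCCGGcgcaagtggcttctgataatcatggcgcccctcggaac

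MRPS34 and MRPS22, which moved in opposite directions in U87, each held 3 ETS matches, MRPL42 held 1 YY1 match just after the start, and MRPL24 held neither core. The MRPL24 window lies wholly inside the gene as placed in the deposited table, with coordinates given below. The start of the gene in that table was not searched. Of the 78 members, 69 had a promoter in the RefSeq table. The ETS core was present in 29 of these (42%), against 10.7% of all 27305 promoters of the same length. The YY1 core was present in 20 (29%), against 3.03% of all. The palindrome of NRF1, a regulator of respiratory-chain genes, was found in 1 member (1.45%, against 1.36%), and its form with a free central base, which includes the former, in 8 (11.6%, against 6.28%).

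The ETS core stood in similar shares of promoters whatever the direction of the call in U87. The calls used here came from the fit without the offsets for transcript GC content and length, and the split was not made with them. It was present in 11 of the 25 promoters of members that fell, in 7 of the 17 of members that rose and in 11 of the 27 of members not called. For YY1 the counts were 10 of 25, 7 of 17 and 3 of 27. Large-subunit and small-subunit names were also close, with the ETS core in 40.5% and 44.4% of promoters and the YY1 core in 28.6% and 29.6%. These are descriptions of letters in a window, and binding was not measured.

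Measured per transcript length, MRPL12 was the most abundant member, at a mean of 78.5 FPKM (fragments per kilobase of transcript and 1000000 fragments) over the 12 libraries. MRPL12 forms the flexible stalk of the large subunit to which translation factors bind. MRPL14, a protein of the face that meets the small subunit, followed at 48.8 FPKM and MRPL41, a protein added in mitochondria, at 42.5 FPKM. The lowest levels were those of MRPL48 at 1.31, MRPL42 at 1.5 and MRPL55 at 1.86 FPKM. FPKM of genes with several isoforms depends on the length assigned to them.

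In U251, 1 member rose with artesunate, 2 fell and 75 did not pass the test. The share called among all 17150 tested genes was 8.34%, with 4.09% higher and 4.26% lower. Here and below, a call is an adjusted p under 0.05 in edgeR's quasi-likelihood test with Benjamini-Hochberg adjustment over all tested genes. The median log2 fold change was -0.07 over MRPL names and -0.12 over MRPS names, against 0.00 over all tested genes. The number of calls depended on the fit: 9 members (2 higher and 7 lower) were called without treated U87 replicate 2, 8 by DESeq2 and 11 in a fit of the 6 U251 libraries alone. Calls over all genes rose in the same fits, from 701 higher and 730 lower. They were 1328 and 1254 without that replicate, 1083 and 1245 by DESeq2, and 1481 and 1411 with 6 libraries. In bulk RNA, fewer cells in one state and less RNA per cell cannot be told apart.

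MRPS6 (ENSG00000243927, chr21:34073224-34143034, plus strand), a small-subunit protein of bacterial descent, was the member that rose in U251. Its level was 41.7, 45.5 and 47.9 CPM in the untreated libraries and 71.2, 70.6 and 70.3 CPM with artesunate. Every treated library lay above every untreated one, a log2 fold change of 0.65 ± 0.09 (SE; edgeR adjusted p = 0.0018). It shares 273 exon bases with SLC5A3, an inositol transporter gene on the same strand, which rose by 0.94 in U251. How reads in the shared stretch were assigned is not given in the sources used here, and its part in the MRPS6 result was not tested.

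MRPL15, a large-subunit protein of bacterial descent, fell in U251. It stood at 36.3, 34.2 and 34.6 CPM untreated and at 27.3, 26.7 and 22.9 CPM with artesunate, with no overlap between the groups. The log2 fold change was -0.45 ± 0.10 (SE; edgeR adjusted p = 0.016). The call was lost without untreated replicate 1 (adjusted p = 0.059) or treated replicate 3 (adjusted p = 0.054).

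MRPL46, a mitochondrial addition to the central protuberance of the large subunit, also fell in U251. Its levels were 19.9, 15 and 15.3 CPM untreated and 11.5, 10.3 and 9.93 CPM with artesunate, again without overlap. The log2 fold change was -0.66 ± 0.17 (SE; edgeR adjusted p = 0.039), and the adjusted p rose above the threshold in 8 of 22 alternative analyses, including the omission of any single U251 library.

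With offsets for transcript GC content and length, described below, the same 3 members were called in U251, beside 9.17% of all tested genes (4.97% higher and 4.2% lower).

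In U87 the members split. Of the 78, 19 rose, 27 fell and 32 did not pass the test, against a share of 58.3% called among all tested genes (29.2% higher and 29.2% lower). At least 2-fold, 15 members fell and 2 rose, against 17% and 11.5% of all tested genes. Over MRPL names 11 rose and 18 fell, with a median log2 fold change of -0.19, and over MRPS names 8 rose and 9 fell, with a median of -0.06. Without treated replicate 2, the library that stood apart, 24 members rose and 28 fell, against 59.5% of all genes called (29.2% higher and 30.3% lower).

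**Figure D1:**
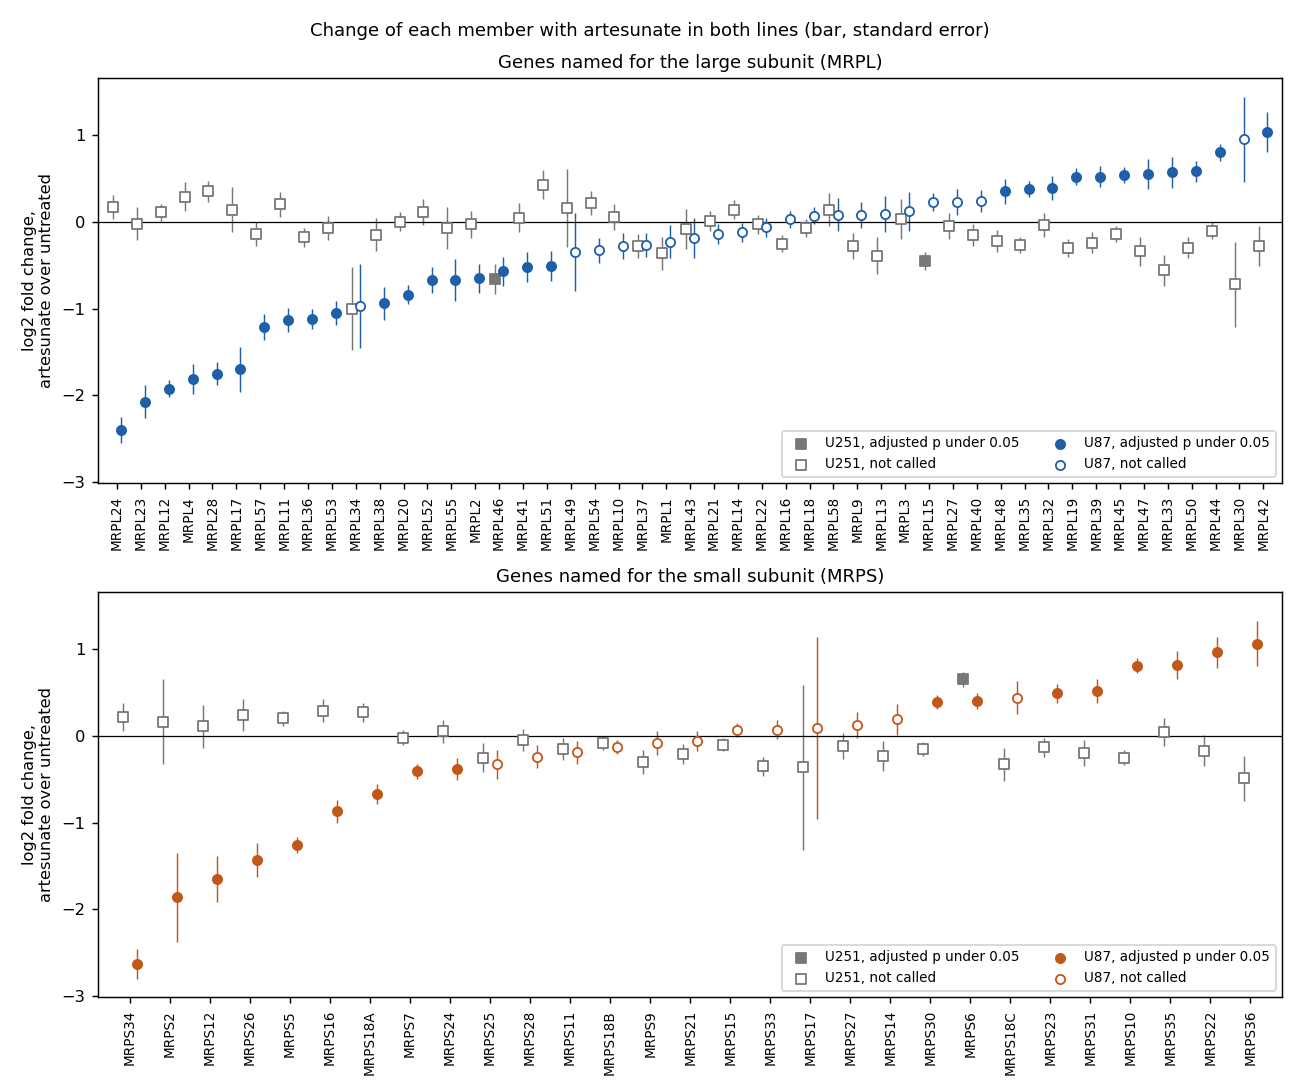
Log2 fold change (artesunate over untreated) of each of the 78 members in U251 (squares) and U87 (circles), ordered by the value in U87, with large-subunit names above and small-subunit names below; bars are standard errors and filled symbols have an adjusted p under 0.05. The U87 values run from -2.63 (MRPS34) to 1.06 (MRPS36), whereas in U251 3 symbols are filled.

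The direction in U87 went with the base composition of the transcript. The median GC content of the longest transcript over the tested genes was 47.9%. Of the 40 members at or under it, 19 rose and 5 fell; of the 38 over it, none rose and 22 fell. Among all tested genes the same split gave 4162 higher and 764 lower of 8545, and 823 higher and 4235 lower of 8544. Across genes, which are not independent replicates, the U87 change correlated with GC content at r = -0.71 for the 78 members (rho = -0.75), at -0.63 for the 49 MRPL names and at -0.89 for the 29 MRPS names, beside -0.58 over 17089 tested genes.

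Because this gradient ran through the whole transcriptome, log2 fold changes in U87 are given with a second value from a fit with offsets for GC content and transcript length, estimated in each library over all genes. Levels in CPM and FPKM, and the sums made from them, carry no such correction. With the offsets 10 members rose and 32 fell in U87 (45.6% of all tested genes called, 19.7% higher and 25.9% lower). At least 2-fold, 9 fell and 2 rose with them, against 9.38% and 5.67% of all tested genes. Over MRPL names 8 rose and 19 fell (median -0.19), over MRPS names 2 rose and 13 fell (median -0.27), and the median over all tested genes was -0.05. Both fits called 19 members lower and 4 higher. Another 7 members were called in opposite directions, 16 were called only without the offsets, 12 only with them, and 20 in neither. This division was not counted over all tested genes, so it is not to be read as particular to the members. Whether the gradient came from the cells or from library preparation was not tested.

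**Figure D2:**
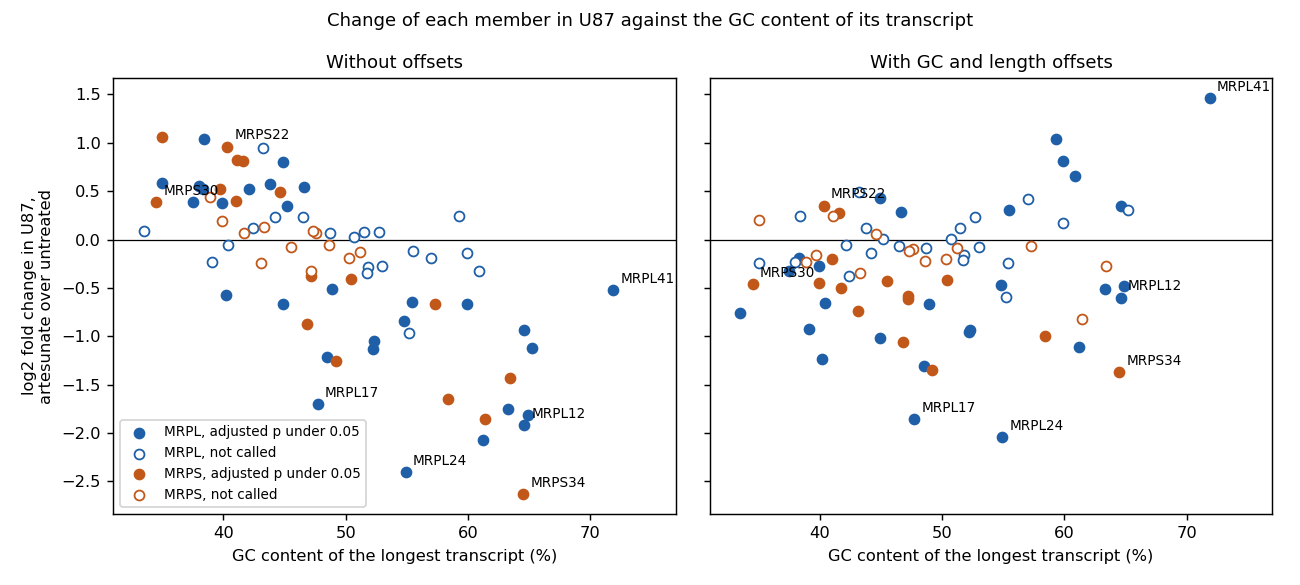
Log2 fold change in U87 (artesunate over untreated) against the GC content of the longest transcript (%) for each member, without offsets (left) and with GC and length offsets (right); filled symbols have an adjusted p under 0.05. The correlation across the 78 members was -0.71 on the left and 0.11 on the right. On the right it was 0.27 over the MRPL names and -0.47 over the MRPS names, beside -0.07 over all tested genes. MRPL24, MRPL17 and MRPS34 are the lowest members on the right.

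MRPS34, a small-subunit protein added in mitochondria and known from inherited defects of mitochondrial translation, fell most. The gene (ENSG00000074071) lies at chr16:1771890-1773155 on the minus strand in the deposited table's coordinates on GRCh38. Its level was 70.4, 64 and 62.5 CPM in untreated U87 and 9.61, 14.3 and 8 CPM with artesunate. The groups lay far apart, with replicate 2 the highest of the treated libraries. This was a log2 fold change of -2.63 ± 0.17 (SE; edgeR adjusted p = 3.6e-07), and -1.37 ± 0.11 with the offsets.

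MRPL24 (ENSG00000143314, chr1:156737303-156741590, minus strand) encodes a protein near the exit of the tunnel through which the nascent chain leaves. It stood at 38.2, 43.1 and 50.4 CPM untreated and at 7.87, 9.99 and 7.1 CPM with artesunate. The treated libraries were all below the untreated ones. Its log2 fold change of -2.40 ± 0.15 (SE; edgeR adjusted p = 2.7e-07) was the one that the offsets moved least among the 4 largest falls, to -2.04 ± 0.12.

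At the same tunnel exit, MRPL23 fell from 35.5, 27.3 and 23.4 to 6.7, 7.66 and 6.14 CPM. Its change was -2.07 ± 0.19, or -1.11 with the offsets. MRPL17 went from 101, 60.8 and 93.3 to 29.1, 30 and 19.6 CPM, and its change of -1.70 ± 0.26 became -1.86 with the offsets. MRPL45, a mitochondrial protein of the exit region that ties the ribosome to the inner membrane, rose instead, from 47.2, 45.6 and 44.1 to 66.7, 60.5 and 72.3 CPM (0.54 ± 0.09, edgeR adjusted p = 0.00023; 0.28 with the offsets). Of the 6 tunnel-exit members, 3 fell and 2 rose without the offsets, and 4 fell and 1 rose with them.

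MRPL12 (ENSG00000262814, chr17:81703357-81707526, plus strand), the most abundant member per length over all libraries, was lower in treated U87. It stood at 106, 120 and 112 CPM untreated and at 29.3, 30.2 and 29.8 CPM with artesunate, with treated libraries closely alike. Its log2 fold change was -1.92 ± 0.10 (SE; edgeR adjusted p = 8e-08), and the offsets took it to -0.60 ± 0.15 (adjusted p = 0.0058). Its share of the summed FPKM of all members was 10.1% ± 0.586 (SD, n = 3) in untreated and 3.14% ± 0.243 in treated U87. In U251 the share was 8.61% ± 0.878 untreated and 9.67% ± 0.113 treated. MRPL11, at the base of the same stalk, fell by 1.13 on the log2 scale in U87 (by 0.96 with the offsets), and MRPL10, the protein that carries MRPL12, had -0.28 (adjusted p = 0.12), or -0.16 with the offsets, neither called. Without treated replicate 2 MRPL10 was at -0.50 and called. MRPL10, MRPL11, MRPL2, MRPL38, MRPL44, MRPL45 and MRPS2 fall outside the rule for named genes and were chosen after their values were seen.

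MRPL4 and MRPL28 are both of bacterial descent. MRPL4 went from 66.1, 80.8 and 69.4 to 14.8, 25.2 and 21.5 CPM and MRPL28 from 27, 34.4 and 32.3 to 9.03, 10.4 and 8.32 CPM. Neither pair of groups overlapped. They fell by 1.81 and 1.75 on the log2 scale, and by 0.48 and 0.51 with the offsets. MRPL28 shares 223 exon bases with TMEM8A on the same strand, which changed by -1.29. MRPL57, a small mitochondrial addition, fell from 22.5, 23.6 and 21.9 to 8.45, 12.6 and 8.32 CPM, a change of -1.21 that was -1.31 with the offsets.

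MRPS12, the decoding-centre protein whose bacterial counterpart is the site of streptomycin resistance, showed the spread within treated U87. It was at 65.4, 80.6 and 73.7 CPM untreated and at 15.7, 37.2 and 17.2 CPM with artesunate. Replicate 2 stood at more than the level of the other treated libraries combined, yet below every untreated library. The log2 fold change was -1.65 ± 0.26 (SE; edgeR adjusted p = 0.00019), -2.17 without that library and -1 with the offsets. On the opposite strand SARS2, which codes for mitochondrial seryl-tRNA synthetase and shares 349 exon bases with MRPS12, changed by -2.03, and the sources used here do not say whether counting used strand.

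MRPS2, a protein at the junction of the head and body of the small subunit, was the least stable of the large falls. It stood at 88.8, 27.5 and 95.6 CPM untreated and at 11.6, 10.1 and 36.3 CPM with artesunate, so that the groups overlapped. The log2 fold change was -1.86 ± 0.51 (SE; edgeR adjusted p = 0.0077), and -0.82 ± 0.54 (adjusted p = 0.25) with the offsets.

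MRPL46 was called lower in both lines. In U87 it went from 33.8, 24.9 and 26.3 to 22.4, 15.8 and 19.3 CPM, with every treated library below every untreated one. The log2 fold change was -0.57 ± 0.17 there (SE; edgeR adjusted p = 0.012), and -1.24 with the offsets. The difference between the lines was -0.10 ± 0.24 (adjusted p = 0.79) without the offsets and 0.72 ± 0.20 (adjusted p = 0.02) with them. MRPL15, lower in U251, stood at 56.4, 49.4 and 50.8 CPM in untreated and at 62.8, 56.9 and 64.5 CPM in treated U87. Its change there was 0.23 (adjusted p = 0.052), or -0.07 with the offsets, neither called.

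**Figure D3:**
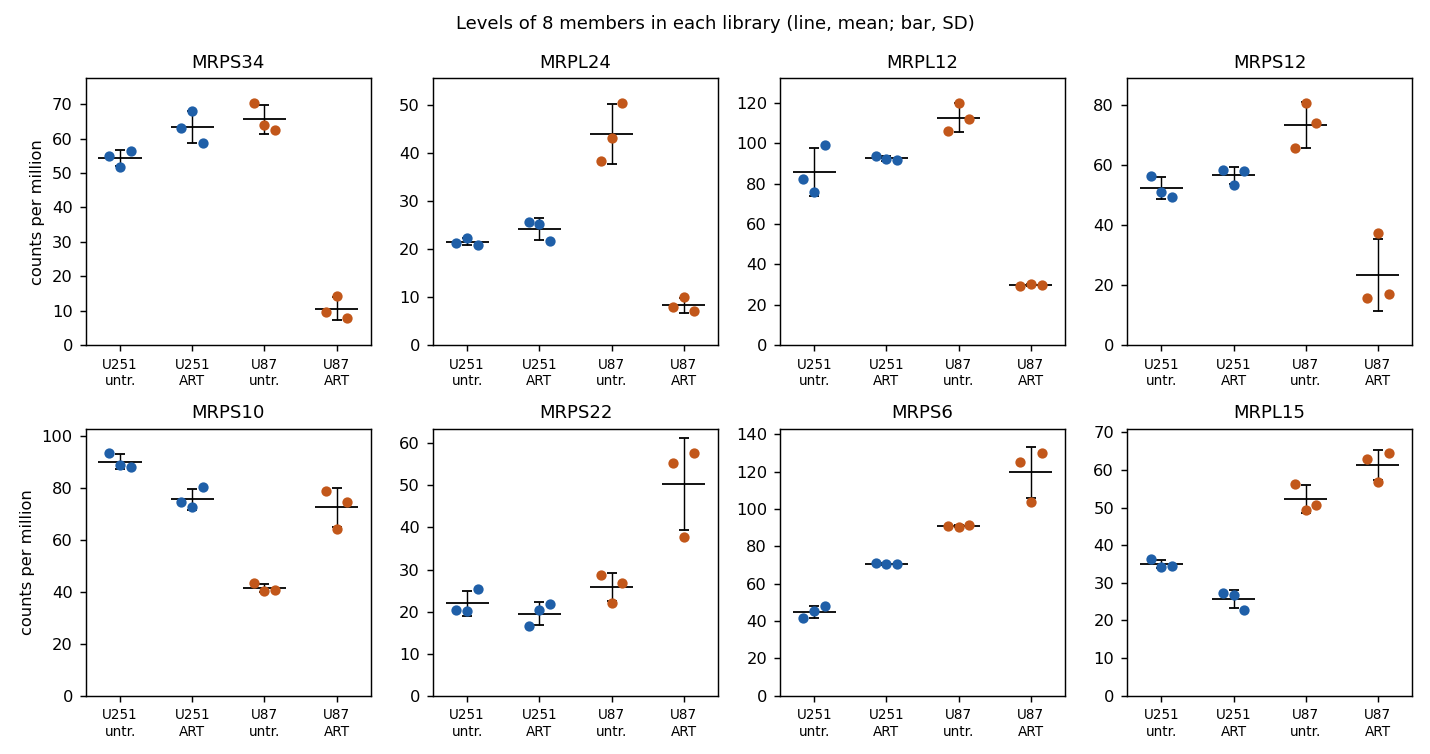
CPM of 8 members in each of the 12 libraries (points), with the group mean (line) and SD (bar, n = 3); untr., untreated; ART, artesunate. MRPS34, MRPL24, MRPL12 and MRPS12 are lower in all treated U87 libraries, MRPS10, MRPS22 and MRPS6 are higher there, and in U251 the groups of MRPS6 and MRPL15 do not overlap.

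Among the members that rose in U87, MRPS10 had the smallest p. This protein of the small-subunit head stood at 43.3, 40.4 and 40.8 CPM untreated and at 78.8, 64.4 and 74.8 CPM with artesunate. All treated libraries were higher, and the log2 fold change was 0.81 ± 0.09 (SE; edgeR adjusted p = 1.3e-05), and 0.27 ± 0.06 with the offsets (adjusted p = 0.0021).

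MRPS22, a mitochondrial addition to the small subunit that is mutated in inherited disease of mitochondrial translation, rose from 28.7, 22.1 and 26.8 to 55.4, 37.8 and 57.7 CPM. Replicate 2 was again nearest to the untreated libraries. The change of 0.96 ± 0.18 (SE; edgeR adjusted p = 0.00064) became 0.35 ± 0.13 (adjusted p = 0.043) with the offsets. MRPL44, a large-subunit protein related to ribonuclease III, rose by 0.80 and by 0.43 with the offsets. With MRPL45 these were the 4 members called higher by both fits.

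The remaining large rises were not called once the offsets were used. MRPS36, not a ribosomal protein, rose from 10.4, 9.41 and 6.33 to 16.9, 15.9 and 21.5 CPM, a change of 1.06 that was 0.20 with the offsets (adjusted p = 0.56). MRPL42, a mitochondrial addition to the large subunit, stood at 26.3, 24 and 15.1 CPM untreated and at 48.5, 32.3 and 53.4 CPM with artesunate. Its change was 1.04, or 0.24 with the offsets (adjusted p = 0.41). For MRPS35, a mitochondrial addition to the small subunit, the levels were 70.9, 62.1 and 58.7 CPM untreated and 120, 101 and 118 CPM treated. All treated libraries of these genes lay above the untreated ones. The change of MRPS35 was 0.82, or 0.24 with the offsets (adjusted p = 0.18). MRPL33, which shares 324 exon bases with BABAM2 on the same strand, changed by 0.57, or 0.12 with them (adjusted p = 0.5).

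Several members took the opposite sign with the offsets. MRPL41, whose transcript is 71.9% GC, stood at 63.2, 77.5 and 76.9 CPM untreated and at 40.7, 65.2 and 45.8 CPM with artesunate, overlapping groups with a change of -0.52 (edgeR adjusted p = 0.019) that became 1.46. MRPS30, at 34.5% GC, changed by 0.39 and by -0.46 with the offsets, both called. MRPS6 rose by 0.40 in U87 without the offsets and changed by -0.20 with them (adjusted p = 0.031), whereas its rise in U251 was 0.81 with them. MRPL14 was not called without the offsets (-0.12) and changed by 0.30 with them, and MRPL21 likewise had -0.14 and 0.81.

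The 3 paralogues related to bacterial S18 gave different values in U87. MRPS18A, which lies in the large subunit, changed by -0.67 (edgeR adjusted p = 0.00034), and by -0.07 with the offsets (adjusted p = 0.7). MRPS18B stood at 41, 42.8 and 45.7 CPM untreated and at 39.8, 39.2 and 39.2 CPM treated, a narrow range, and had -0.13 and -0.09, neither called. MRPS18C had 0.44 (adjusted p = 0.064) and -0.23, neither called, although without treated replicate 2 it changed by 0.65 (adjusted p = 0.00096). It shares 1956 exon bases with ABRAXAS1 on the opposite strand, which changed by 0.71 in U87 without the offsets. The part of this overlap in the MRPS18C values was not tested. MRPL58, a peptidyl-tRNA hydrolase built into the central protuberance, had 0.08 and 0.12, neither called.

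Counts by region are to be read beside the 29.2% higher and 29.2% lower of all tested genes, or 19.7% and 25.9% with the offsets. The 3 stalk proteins gave 2 lower and none higher in both fits, and 3 lower without treated replicate 2. The 6 proteins of the central protuberance gave 1 higher and 2 lower, and with the offsets 2 higher and 1 lower, MRPL38 being called in opposite directions. Around the peptidyl transferase centre, where peptide bonds form, MRPL2 was the single call of 4, lower without the offsets and not called with them. The small-subunit head gave 1 higher and 3 lower of 6, and the body and platform 1 higher and 3 lower of 10. With the offsets these were 1 higher and 4 lower, and none higher and 4 lower. Large-subunit proteins of bacterial descent gave 5 higher and 12 lower of 31, and those added in mitochondria 7 higher and 7 lower of 20. With the offsets these became 2 higher and 14 lower, and 6 higher and 6 lower. Small-subunit proteins of bacterial descent gave 2 higher and 6 lower of 17, and those added in mitochondria 4 higher and 2 lower of 9. In the fit with offsets the small-subunit counts were 1 higher and 9 lower, and 1 higher and 3 lower.

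Summed over genes, the large-subunit names reached 1932 ± 57.1 CPM (SD, n = 3) in untreated and 1800 ± 42.5 CPM in treated U251, and 2219 ± 56 and 1910 ± 132 CPM in untreated and treated U87. Treated libraries were below untreated ones in both lines. The small-subunit names reached 1181 ± 20.5 and 1166 ± 23 CPM in U251, where the groups overlapped, and 1324 ± 20.8 and 1230 ± 106 CPM in U87. In U87 they overlapped by 1 treated library, at 1316 CPM.

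The ratio of large to small sums of CPM, not corrected for GC content, was lower with artesunate in both lines. It was 1.64 ± 0.0385 (SD, n = 3) in untreated and 1.54 ± 0.0321 in treated U251, and 1.68 ± 0.0165 and 1.56 ± 0.0613 in U87. No library of a treated group reached the lowest untreated library of its line. Assigned by place in the structure the ratios were 1.91 and 1.8 in U251 and 1.9 and 1.8 in U87. In FPKM they were 2.1 and 2.05 in U251, where the groups overlapped, and 2.36 and 2.19 in U87. No test was made of these sums, since the members were chosen with results of these data known. Median transcript GC was 50.7% over MRPL and 46.8% over MRPS names, and its part in the ratio was not tested. Median log2 fold changes did not always order the subunits as the ratio did. For MRPL and MRPS names they were -0.07 and -0.12 in U251, and -0.09 and -0.04 with the offsets. In U87 they were -0.19 and -0.06, and -0.19 and -0.27 with the offsets. All members together took 0.314% ± 0.00774 of counts in untreated U251, 0.293% ± 0.00588 in treated U251, 0.364% ± 0.0113 in untreated U87 and 0.306% ± 0.0152 in treated U87.

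**Figure D4:**
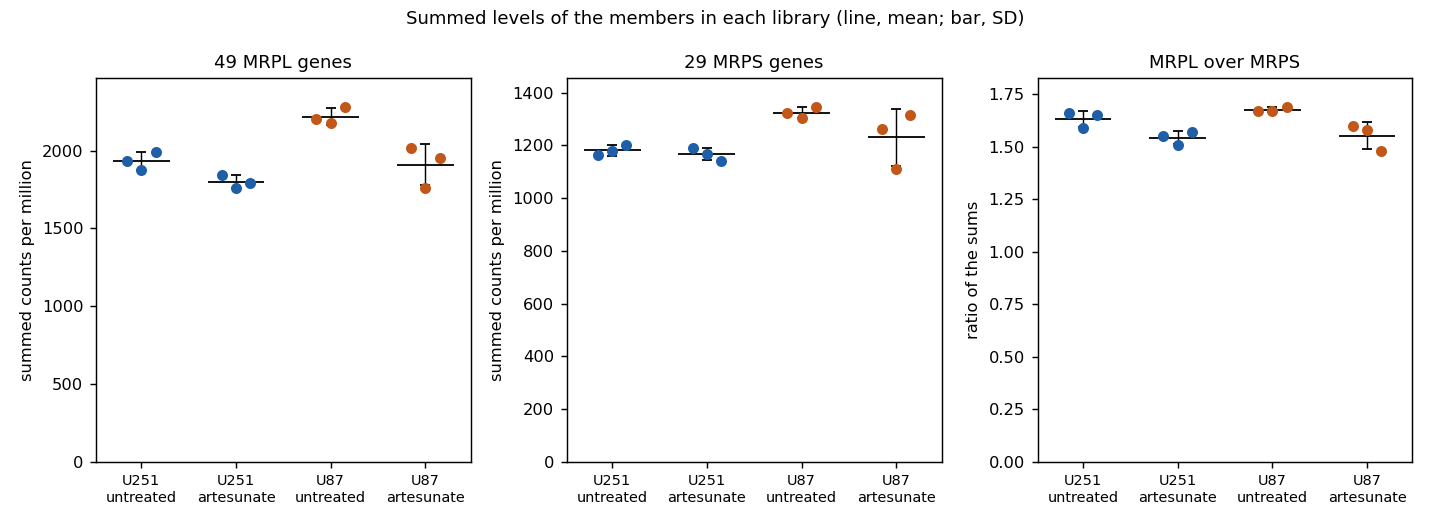
Summed CPM of the 49 MRPL and 29 MRPS genes and the ratio of the sums in each library (points), with the group mean (line) and SD (bar, n = 3). The ratio lies at 1.59 to 1.66 and 1.67 to 1.69 in the untreated libraries of U251 and U87, and at 1.51 to 1.57 and 1.48 to 1.6 in the treated ones.

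The effect of artesunate was then compared between the lines through the difference of the log2 fold changes, U251 minus U87. This difference passed the test for 44 members, higher for 24 and lower for 20, against 49.4% of all tested genes (24.1% higher and 25.3% lower). With the offsets 23 were higher and 9 lower, against 29.7% of all genes (17.5% higher and 12.2% lower). Both fits shared 15 of the higher and 3 of the lower calls, and shared calls over all genes were not counted. Among called members the largest differences were those of MRPS34 (2.85 ± 0.23, and 1.32 with the offsets) and MRPL24 (2.57 ± 0.21, and 2.12). At the other end of the called members stood MRPS36 (-1.55 ± 0.37) and MRPL42 (-1.32 ± 0.33), both -0.38 and not called with the offsets. MRPS10 kept a called difference in both fits, at -1.06 ± 0.12 and -0.34 ± 0.08.

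Across the 78 members the change in U251 correlated with that in U87 at r = -0.46, and at -0.27 with the offsets. The values over all 17150 genes were -0.10 and 0.08. The U251 change itself correlated with transcript GC at 0.42 over members and 0.29 over all genes, a gradient of opposite sign to that in U87. Genes share libraries and base composition, so these correlations are descriptions.

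Untreated U251 and untreated U87 also differed in many members. In U251 relative to U87, 14 were higher and 31 lower, against 64.8% of all tested genes called (32.5% higher and 32.3% lower). With the offsets 20 were higher and 29 lower, against 66.7% (32.5% higher and 34.2% lower). The median over MRPL names was -0.22 without and 0.08 with the offsets, and over MRPS names -0.24 and -0.30. The fits shared 21 lower and 8 higher calls, and shared calls over all genes were not counted.

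MRPS10 was the clearest of the members that were higher in untreated U251, at 93.6, 88.9 and 88.4 CPM against 43.3, 40.4 and 40.8 CPM in U87. The log2 difference was 1.12 ± 0.09 (SE; edgeR adjusted p = 4.5e-07), and 0.92 with the offsets. MRPL57 was higher by 0.96 (1.13 with the offsets). MRPS36 and MRPL42 were higher by 0.88 and 0.70 without the offsets, and were not called with them.

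Among the members that were lower in untreated U251 were the tunnel-exit proteins MRPL23, MRPL17 and MRPL24. Their log2 differences were -1.36 ± 0.19, -1.19 ± 0.26 and -1.03 ± 0.14, and -0.79, -1.04 and -0.54 with the offsets. MRPL21, a bacterial-type protein, stood at 24.1, 29.1 and 29 CPM in U251 and at 59.5, 70.5 and 65.8 CPM in U87, a difference of -1.25 ± 0.12 (-0.74 with the offsets). MRPL51 differed by -1.03 and MRPS6 by -1.01. This comparison and that of artesunate in U87 share the untreated U87 libraries.

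The wider machinery was read from lists chosen with earlier results of these data known. Among 5 further ribosomal subunits with other symbols, AURKAIP1 fell from 79.1, 101 and 101 to 7.57, 17.4 and 10.1 CPM in U87. This small-subunit protein had a log2 fold change of -3 ± 0.24 (SE; edgeR adjusted p = 1.3e-06), or -1.46 with the offsets. PTCD3, a small-subunit protein with pentatricopeptide repeats, changed by 0.45 in U87 and by -0.08 with the offsets (adjusted p = 0.24). In U251 it was the list's single call, at -0.32 ± 0.09 (edgeR adjusted p = 0.04), beside 8.34% of all tested genes called.

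Of 17 translation factors, 8 rose and 3 fell in U87, against 29.2% of all tested genes in each direction. With the offsets 1 rose and 6 fell, against 19.7% and 25.9%. LRPPRC, which stabilises mitochondrial mRNAs, changed by 0.71 (0.15 with the offsets), and TUFM, the elongation factor that brings aminoacyl-tRNA, by -0.88 (-0.21). Of 27 assembly and rRNA modification factors, 6 rose and 8 fell, and 6 rose and 7 fell with the offsets, shares near those of all genes. GTPBP10, a GTPase of large-subunit assembly, changed by 1.27 (0.44 with the offsets) and MPV17L2, another large-subunit factor, by -1.22 (-0.22, not called). No gene of either list was called in U251, where 8.34% of all tested genes were called.

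Of the 13 mRNAs that the mitochondrial ribosome translates, 9 fell and none rose in U87, both without and with the offsets, against 29.2% and 25.9% of all tested genes lower. The 4 not called without the offsets were MT-ATP6 (0.22), MT-ND4L (-0.12), MT-ND6 (-0.63) and MT-ATP8 (-1.28). MT-CO3, a subunit of cytochrome c oxidase, stood at 5422, 4942 and 5024 CPM untreated and at 1147, 2071 and 1220 CPM with artesunate. Its log2 fold change was -1.79 ± 0.18 (SE; edgeR adjusted p = 6.6e-06), and -2.03 with the offsets. Treated replicate 2 held more of these mRNAs than the other treated libraries, the summed level running from 13881 to 29113 CPM within the group, against 32987 to 35969 CPM untreated. Without it all 13 were called lower, against 30.3% of all genes. In U251 none of the 13 was called, against 8.34% of all tested genes, and the list's median was -0.08.

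Some members share sequence with other genes, which the counting could divide. Exon bases overlap another tested gene in 31 members, on the opposite strand in 22 and on the same strand in 9. MRPS17, which overlaps such a gene, ranged from no count to a clear level within U87 groups. It was not called in any comparison without the offsets, and with them it was called higher in untreated U251 (adjusted p = 0.044). Among 75 pseudogene rows of this family 4 were tested, the largest at 13.4% of the level of its parent MRPS31.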

How the data were processed

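The deposited gene table holds counts per gene and FPKM for 12 libraries. The series text states that fastp was used for read cleaning, HISAT2 2.1.0 for alignment (GRCh38) and StringTie 1.3.3b for quantification. The authors computed the FPKM after TMM (trimmed mean of M values) scaling. How the authors' deposited counts were made, and whether strand was used, is not given in the sources used here.

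The counts were fitted in edgeR 4.0.16 (R 4.3.3) by the quasi-likelihood test, with TMM factors, 1 mean for each of 4 groups, a count minimum of 10 and a total minimum of 15. CPM are counts per 1000000 of the TMM-scaled library size. Members were matched by symbol and gene type, and the members and lists were chosen with earlier results of these data known. Transcript GC content and length came from GENCODE 29, with per-library natural splines of 5 degrees of freedom each as offsets. They covered 99.6% of tested genes. The position of 77 members was the same in GENCODE 29.

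Named genes were, in each comparison, the 4 called members with the largest change in each direction and the smallest p in each. To these were added the 3 highest and 3 lowest by FPKM, and MRPL12, MRPS12, MRPS18A, MRPS18B, MRPS18C, MRPS30, MRPL58 and MRPS36. From each of 4 further lists, the gene with the smallest p in each direction was named. Alternatives were DESeq2 1.42.0, total counts, no filter, 6 libraries only, each library left out, a replicate block, the offsets, and limma 3.58.1 on log2(FPKM + 1) or log2(FPKM + 0.1). The authors' deposited comparison columns were not used. The scripts were tested on simulated data.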

Additional observations from a re-analysis of the deposited data

Results flagged for a closer look

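The effect of artesunate differed between U251 and U87 by the interaction test (edgeR adjusted p under 0.05) for 44 members, against 49.4% of all tested genes. Differences are the U251 change minus the U87 change, on the log2 scale. The 10 members given here had the largest differences among called members in each direction, or the smallest p. Other named members, such as MRPL17 and MRPL23, also passed the test. MRPS34 (2.85), MRPL24 (2.57), MRPL28 (2.10), MRPL4 (2.10) and MRPL12 (2.03) fell in U87 and were not called in U251. MRPL24 lost the least of its difference with the GC and length offsets, at 2.12, and MRPL12 was at 0.44 (adjusted p = 0.13). MRPL33 (-1.13), MRPL42 (-1.32), MRPS10 (-1.06), MRPS22 (-1.13) and MRPS36 (-1.55) rose in U87 and were not called in U251. Of these, MRPS10 alone was called with the offsets, at -0.34. The lines received different doses, and dose and line cannot be told apart.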

How the results depend on the processing

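Over 77 gene results of 29 named genes and their alternatives (1684 in all), 1538 kept direction and side of the threshold, 70 lost the call, 24 gained it and 52 changed sign. The replicate numbers showed no clear pairing of the libraries: 18 same-numbered pairs had r of -0.066 to 0.0576, beside -0.0946 to 0.0876 for other pairs. Of 12 libraries, 7 correlated best with their own number, so weak pairing is not excluded. A replicate block gave 1 higher and 2 lower members in U251, 18 and 27 in U87, 24 and 19 for the difference and 15 and 30 for the untreated lines. Over all genes it gave 612 and 545, 4829 and 4931, 4057 and 4231, and 5502 and 5470. In U251, members higher numbered 3 with 6 libraries and 1 to 2 with a library left out. Members lower numbered 7 with DESeq2, 4 with total counts, 1 without the filter, 8 with 6 libraries, 0 to 7 with a library left out (0 without untreated U251 replicate 1, 7 without treated U87 replicate 2), 7 and 6 on log2(FPKM + 1) and log2(FPKM + 0.1), and 8 with a mean of at least 1 FPKM. All-gene calls in U251 were 617 higher and 976 lower with total counts, beside 701 and 730. They were 1083 and 1245 with DESeq2, 516 and 348 without the filter, and 1481 and 1411 with 6 libraries. Without untreated U251 replicate 1 they were 426 and 348, and without treated U87 replicate 2 they were 1328 and 1254. On log2(FPKM + 1) and log2(FPKM + 0.1) they were 821 and 1333, and 681 and 1117. With a mean of at least 1 FPKM they were 778 and 1258. In U87, members higher were 10 with the offsets and 9 with the block and offsets, beside 3384 and 3219 of all genes. The members with a lower difference were 9 and 9, beside 2091 and 1934 of all genes. The large-to-small ratio was 2.1, 2.05, 2.36 and 2.19 in FPKM, and 1.91, 1.8, 1.9 and 1.8 by structure, in untreated and treated U251 and U87. Signs changed with the offsets (value with block and offsets second) in U251 for MRPL12 (-0.16, -0.15), MRPL21 (-0.18, -0.19), MRPL41 (-0.34, -0.33), MRPS12 (-0.04, -0.04), MRPS22 (0.03, 0.04), MRPS30 (0.11, 0.11) and MRPS34 (-0.05, -0.05). In U87 they changed for MRPL14 (0.30, 0.30), MRPL15 (-0.07, -0.06), MRPL21 (0.81, 0.79), MRPL41 (1.46, 1.46), MRPL55 (0.17, 0.19), MRPS18C (-0.23, -0.24), MRPS30 (-0.46, -0.46) and MRPS6 (-0.20, -0.20). Other sign changes were near 0: in U251 MRPL21 with total counts or FPKM (-0.02), MRPL23 without the filter or with the block (0.01), and in U87 MRPL58 with total counts (-0.00) or FPKM (-0.03). With a library left out, values that changed sign ran in U251 from -0.07 to 0.33 for MRPL17, -0.06 to 0.07 for MRPL21, -0.18 to 0.08 for MRPL23, -0.05 to 0.14 for MRPL41, -0.31 to 0.04 for MRPL55 and -0.14 to 0.15 for MRPS35, and in U87 from -0.06 to 0.26 for MRPL58. The cause was not tested. With 3 libraries a group and 13631985 to 17314284 counts, small changes of low members are not resolved.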
